A study of Sus scrofa with 6 samples.

Results

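Ccl2, Ccl7, Ccl8 and Ccl12 encode 4 monocyte-attracting chemokines of the CC family, and Ccr2 encodes a receptor for chemokines of this group. These 5 genes were followed across 6 single-cell RNA sequencing libraries. The genes were taken by exact match of their symbols in the feature tables, as 5 of 32285 gene features in all, and each symbol matched 1 mouse Ensembl identifier: ENSMUSG00000035385 for Ccl2, ENSMUSG00000035373 for Ccl7, ENSMUSG00000009185 for Ccl8, ENSMUSG00000035352 for Ccl12 and ENSMUSG00000049103 for Ccr2. All 5 were detected in all 6 libraries.

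CC chemokines are small secreted proteins that guide leukocytes along a gradient. Ccr2 is a G protein-coupled receptor best known on inflammatory monocytes, which use it to leave the bone marrow and to enter inflamed tissue, and in skin its ligands are made by fibroblasts, vessel-wall cells and macrophages. Ccl2 and Ccl7 are the main ligands of mouse Ccr2, Ccl12 is a rodent ligand close in sequence to Ccl2, and Ccl8 in mice is also known as an agonist of the receptor Ccr8.

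Per the labels, every library came from unsorted skin cells of red duroc pigs, digested with collagenase. They are labelled pretreatment (a 1 mg DFO TDDS patch, DFO being the iron chelator deferoxamine, 2 weeks ahead of radiotherapy), continuous (the same patch for 18 weeks in total, over the whole experiment), chronic (the patch 4 weeks after recovery from radiation), acute (the patch with 12 weeks of recovery after radiation), irradiated (irradiated skin, named in the labels as the control of the patches) and normal (no treatment). This gives 5 comparisons: irradiated skin against normal skin, and the 4 patch libraries each against irradiated skin, which they share. The number of animals behind a library is not given in the sources used here. Parts of the record go against these labels. All 32285 gene features were mouse identifiers, the antibody tags in 4 of the libraries (chronic, acute, irradiated and normal) are named as anti-mouse, and the title of the series speaks of an anti-JUN therapeutic and of adhesions after surgery. The labels could not be checked further, so every name below stands for the library so labelled, and what a comparison says of a patch or of radiation rests on labels that may not belong to these cells.

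There was 1 library per label. No difference between libraries could therefore be tested, and no p-value is given. Levels are given in CPM: the unique molecular identifiers (UMIs, each marking 1 captured RNA molecule) of a gene summed over the cells of a class in a library, per 1000000 UMIs of all genes in those cells. Bracketed ranges are exact 95% intervals, which cover counting error only, not the spread between animals.

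Libraries held 1811 to 25052 barcodes and 18611144 to 54966435 gene UMIs, and 75724 cells were kept in all. The library labelled pretreatment stood apart, with 1477 kept cells at a median of 9678 UMIs per cell, against medians of 1310 to 3191 UMIs in the other 5. Pairs of libraries shared 2 to 108 barcodes. A marker gate that used none of the 5 genes placed 79.2% of the kept cells in a class, and classes are called "-like" for that reason. Of the 10 genes highest by fold in macrophage or monocyte-like cells, 6 were gate markers (C1qa, C1qb, C1qc, Ms4a7, Fcgr1 and Chil3). So were 6 of the 10 in fibroblast-like cells. The markers placed the cells, so these counts are no independent check of the classes. Clusters were also built without chemokine genes and named by their most frequent gated class. Clusters named macrophage or monocyte-like held 24.1 to 90.5% of their cells in that gate, and those named fibroblast-like 18.5 to 95.5%.

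Transcripts of other cell types, which free RNA in the droplets can give, were seen in every class and unevenly between libraries. T cell-like cells carried Lyz2, a myeloid gene, at 0.233 to 20.0% of its level in macrophage or monocyte-like cells, and fibroblast-like cells carried it at 0.177 to 7.07%. The ligands behaved alike: in T cell-like cells Ccl2 stood at 1.51 to 25.5% of its macrophage or monocyte-like level. T cell-like values are therefore printed beside the ligand results, and fibroblast-like and keratinocyte-like values beside Ccr2.

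Ccl2 was carried by stromal and myeloid cells alike. In fibroblast-like cells it stood at 738 CPM in pretreatment, 1654 in continuous, 1371 in chronic, 1131 in acute, 1540.1 in irradiated and 1013 in normal. Pretreatment was the lowest of the 6 and continuous the highest, with no overlap between their intervals of 717 to 759 and 1617 to 1691 CPM. In macrophage or monocyte-like cells Ccl2 stood at 697 CPM in pretreatment, 698 in continuous, 498 in chronic, 1119 in acute, 1231 in irradiated and 504 in normal. Acute and irradiated were the high libraries there, while chronic and normal were the low ones.

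Ordered by the median over libraries, Ccl2 was led by cells of the pericyte or smooth muscle-like class (1557 CPM over 4 libraries), followed by fibroblast-like cells (1251 CPM) and macrophage or monocyte-like cells (697 CPM), and the ranges of neighbouring classes overlapped. The pericyte or smooth muscle-like class was small and variable, at 228 CPM in 88 cells of continuous, 1805 CPM in 210 cells of acute, 1606 CPM in 104 cells of irradiated and 1508 CPM in 103 cells of normal. In the last 3 of these, 1 cell held 10.4 to 15.2% of the Ccl2 UMIs. Col1a1, the collagen gene that marks fibroblasts, stood in that class at 3.33% of its fibroblast-like level in continuous, 21.8% in acute, 32.1% in irradiated and 38.9% in normal. The part of fibroblast RNA in the pericyte or smooth muscle-like values was not tested. Vascular endothelial-like cells held Ccl2 at 186 to 724 CPM, lowest in continuous.

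Among fibroblast-like cells, those gated on the neutrophil chemokine gene Cxcl5 carried the most Ccl2, at 2223 CPM in continuous, 1675 in chronic, 1298 in acute, 1684 in irradiated and 1152 in normal. They made up 37.2 to 60.0% of the fibroblast-like cells of these 5 libraries and held 62.6 to 79.4% of the class's Ccl2 UMIs. Any fibroblast-like cell with a Cxcl5 UMI entered this gate, which favours deeper cells. In continuous its median was 12356.5 UMIs per cell, against 8840 over all fibroblast-like cells. The share of Ccl2 UMIs set against the share of cells thus reflects depth as well as level. In pretreatment the Cxcl5 gate held 8 cells, 1.58% of the fibroblast-like cells. Cells gated on Pi16 or Dpp4, markers of adventitial-type fibroblasts, held Ccl2 at 799 CPM in pretreatment, 1489.7 in continuous, 1418 in chronic, 893 in acute, 1259 in irradiated and 855 in normal. Pretreatment was not set apart there, since its interval of 768 to 832 CPM overlapped that of normal, 814 to 898 CPM. Cells gated on Wif1, Pappa2, Coch or Slc26a7 held Ccl2 at 659.6 CPM in pretreatment, 907 in continuous, 584 in acute, 951 in irradiated and 780.2 in normal. The acute value was the lowest but rests on 197 UMIs in 92 cells, which leaves its order against pretreatment uncertain. Chronic, at 47 cells, was without a value.

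Ccl2 UMIs were concentrated in few cells. The top 10% of fibroblast-like cells held 76.0% of them in pretreatment and 52.5 to 60.9% in the other 5 libraries, and a single pretreatment cell held 700 UMIs, 14.2% of the class total. At full depth the share of fibroblast-like cells with a Ccl2 UMI was 54.4% in pretreatment, 67.2% in continuous, 70.0% in chronic, 69.1% in acute, 74.7% in irradiated and 62.7% in normal, at median depths of 3905 to 11905 UMIs per cell. In T cell-like cells, at medians of 1020 to 5872 UMIs, the shares were 8.16% in pretreatment, 9.79% in continuous, 7.96% in chronic, 22.0% in acute, 27.4% in irradiated and 12.3% in normal. Depth was then equalised by thinning each cell to 1000 UMIs, which left out 6 to 212 fibroblast-like cells and 0 to 722 T cell-like cells per library.

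After thinning, the fibroblast-like share with Ccl2 was 19.2% in pretreatment, 43.8% in continuous, 40.7% in chronic, 46.2% in acute, 49.4% in irradiated and 41.4% in normal. The corresponding T cell-like shares were 1.02% in pretreatment, 3.13% in continuous, 3.98% in chronic, 18.1% in acute, 19.6% in irradiated and 7.34% in normal. Fibroblast-like cells thus stood above T cell-like cells in all 6 libraries, and the T cell-like share was highest in the same 2 libraries, acute and irradiated, in which macrophage or monocyte-like Ccl2 was highest. The part of free RNA in those high values was not tested.

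**Figure D1:**
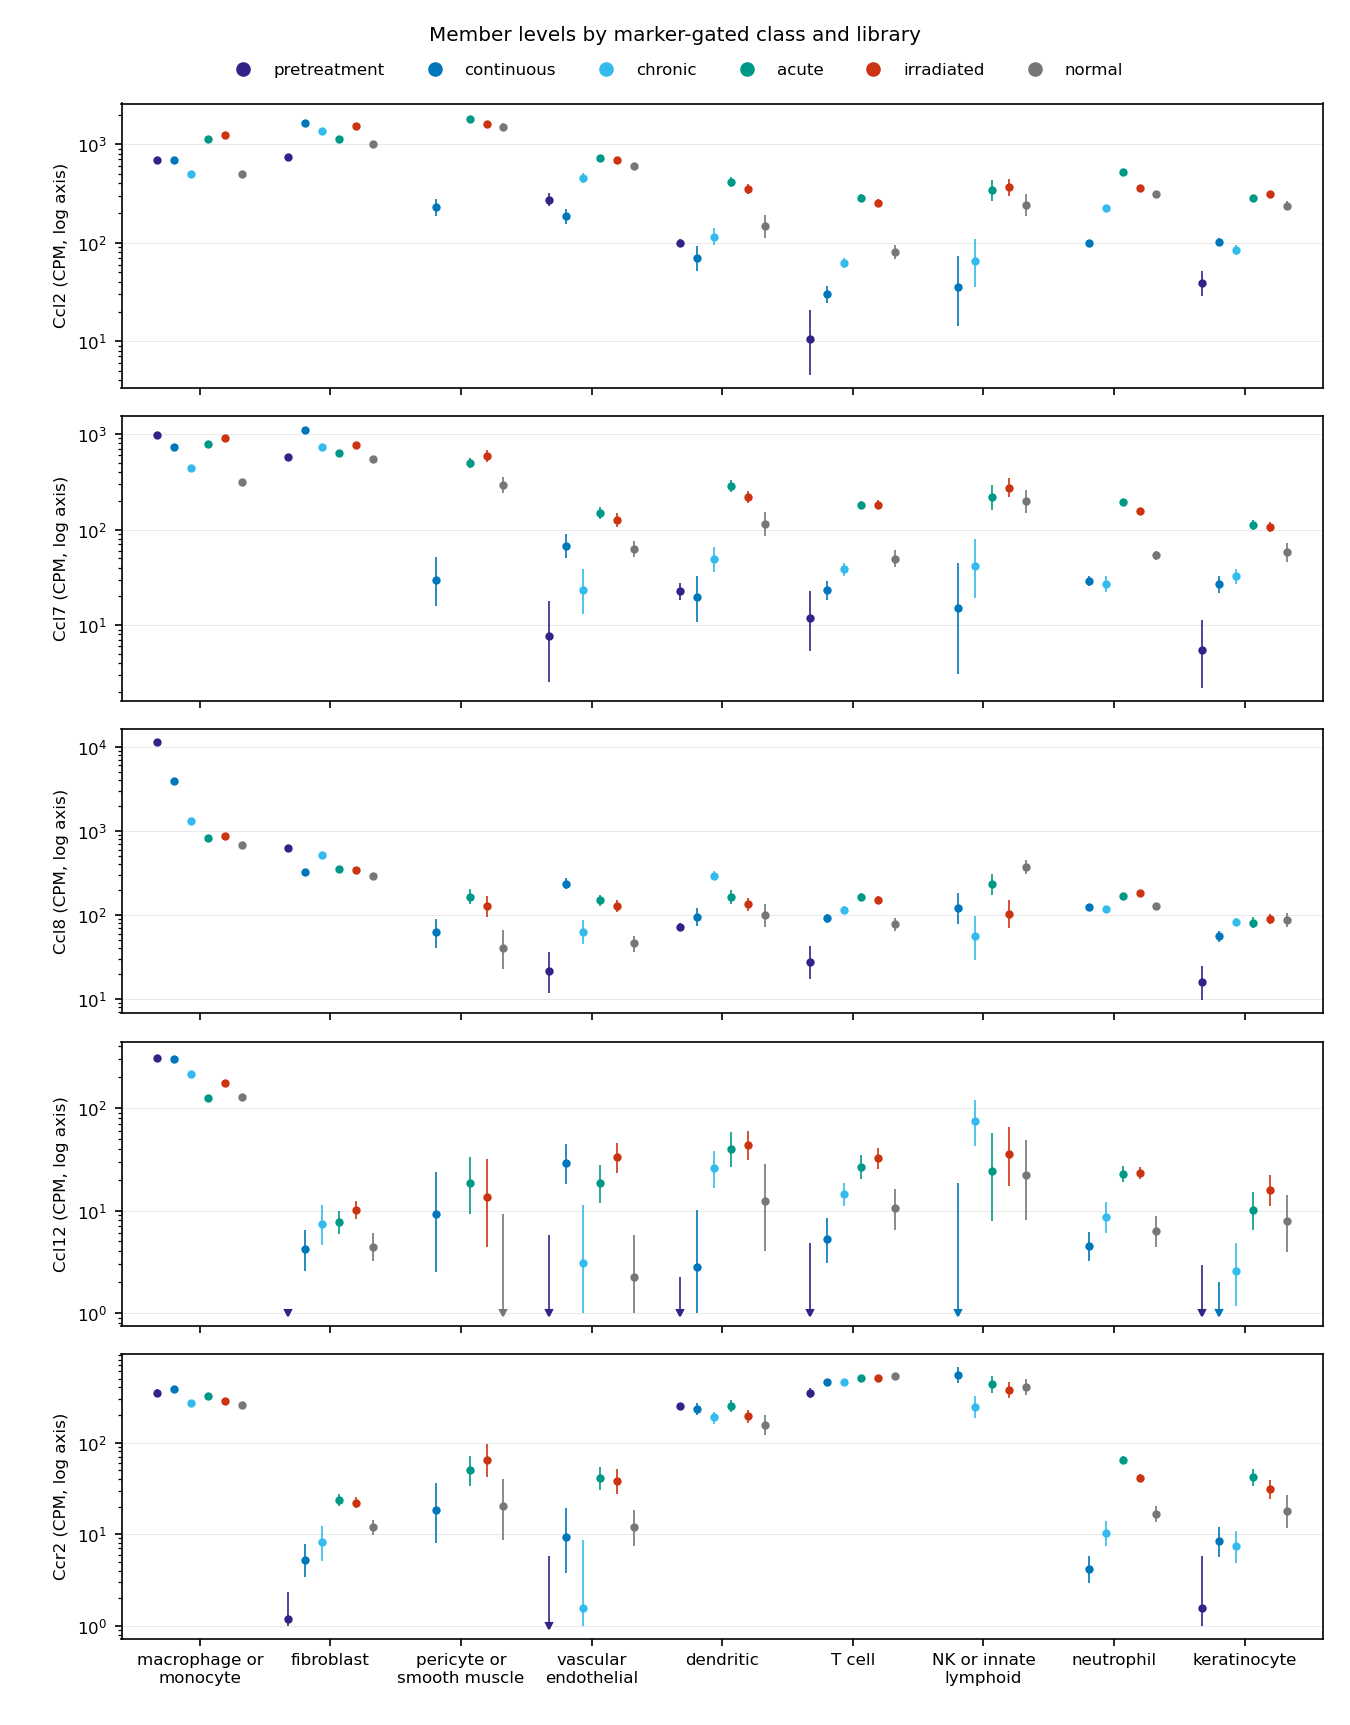
Levels of the 5 genes by cell class, with CPM on a log axis, one point per class and library (at least 50 cells), and bars for exact 95% counting intervals. Ccl8 and Ccl12 peak in macrophage or monocyte-like cells, where Ccl8 reaches 11264 CPM in pretreatment. Ccr2 is high in T cell-like, natural killer or innate lymphoid-like and macrophage or monocyte-like cells. Triangles mark values below the lowest level drawn, among them sums with 0 UMIs.

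Ccl7 followed Ccl2 more closely than any other ligand did. Its macrophage or monocyte-like level was 967 CPM in pretreatment, 730.4 in continuous, 444 in chronic, 789.5 in acute, 898 in irradiated and 317 in normal, so that normal was the lowest library. In fibroblast-like cells it stood at 572 CPM in pretreatment, 1092 in continuous, 734 in chronic, 625 in acute, 757 in irradiated and 553 in normal, with continuous the highest. Across classes the order of medians was macrophage or monocyte-like (760 CPM) and then fibroblast-like cells (680 CPM), with overlapping ranges. T cell-like cells held Ccl7 at 11.9 to 183 CPM, which was 1.23 to 22.9% of the macrophage or monocyte-like level.

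The same cells tended to carry both transcripts. After thinning, Ccl7 was seen in 54.3% of Ccl2-positive against 22.2% of Ccl2-negative fibroblast-like cells in pretreatment, and in 66.0% against 18.4% in continuous. The shares were 53.5% against 23.4% in chronic, 46.7% against 27.5% in acute, 52.9% against 27.9% in irradiated and 43.5% against 23.4% in normal. In all 6 libraries the intervals of the positive and negative cells lay apart. In macrophage or monocyte-like cells they lay apart in 5 of 6, the exception being pretreatment, with 50 Ccl2-positive cells and intervals of 35.5 to 64.5% against 22.2 to 41.5%. Ccl8 did not share this pattern in fibroblast-like cells, where its share in Ccl2-positive and Ccl2-negative cells had overlapping intervals in 6 of 6 libraries. In macrophage or monocyte-like cells Ccl8 was the more frequent among Ccl2-positive cells in 5 of 6 libraries, with intervals apart, but within the gates this was so in 2 of 5 libraries in C1q-gated, 1 of 4 in Arg1-gated and 0 of 6 in resident-gated cells.

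**Figure D2:**
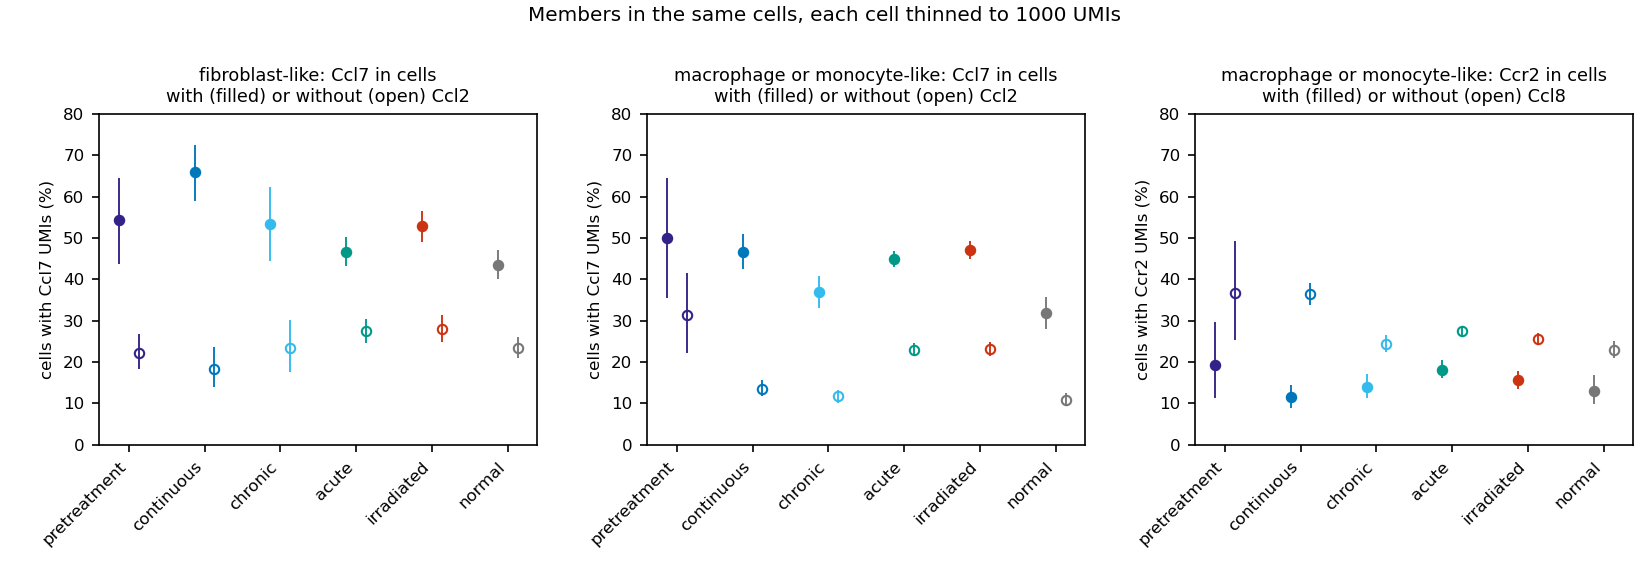
Share of cells (percent, with exact 95% intervals) with a UMI of one gene among cells with (filled) and without (open) a UMI of another, per library, after thinning to 1000 UMIs. Ccl7 is more frequent in Ccl2-positive fibroblast-like cells in all 6 libraries, and Ccr2 is less frequent in Ccl8-positive macrophage or monocyte-like cells, for example at 11.4% against 36.4% in continuous.

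Ccl8 varied most between libraries, and did so in macrophages. Its level in macrophage or monocyte-like cells stood at 11264 CPM (11107 to 11423) in pretreatment, 3919.6 in continuous, 1309 in chronic, 814 in acute, 867 in irradiated and 686 in normal. Pretreatment, continuous and chronic were each above the other 3, beyond the counting intervals. Fibroblast-like cells, the other main source, held Ccl8 at 634 CPM in pretreatment, 323 in continuous, 510.0 in chronic, 353 in acute, 344 in irradiated and 293 in normal. Those values were 5.62 to 43.4% of the macrophage or monocyte-like level, whereas Lyz2 in the same fibroblast-like cells was at most 7.07% of its own. T cell-like cells held Ccl8 at 27.7 to 163 CPM.

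The highest Ccl8 levels were in a gate of resident-type macrophages, chosen on Folr2, Lyve1, Cd163, Cbr2, Gas6, F13a1 and Cd209 family genes, markers known from perivascular tissue macrophages. In these resident-gated cells Ccl8 stood at 21728 CPM in 71 cells of pretreatment, 17967 in 163 cells of continuous, 10099 in 70 cells of chronic, 4686 in 173 cells of acute, 5263 in 147 cells of irradiated and 4530.5 in 107 cells of normal. The 3 libraries that were high over all macrophage or monocyte-like cells were again the high ones within the gate, and acute, irradiated and normal lay close together. The median resident-gated cell held 166 Ccl8 UMIs in pretreatment, 77 in continuous, 28.5 in chronic, 5 in acute, 6 in irradiated and 6 in normal, while the top 10% of cells held 34.6 to 45.5% of the UMIs. One pretreatment cell alone held 1978 UMIs, 10.8% of that library's resident-gated total.

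Ccl8 was seen in 95.8% of resident-gated cells in pretreatment, 95.7% in continuous, 94.3% in chronic, 76.3% in acute, 81.0% in irradiated and 85.0% in normal. After thinning, which left out 1 to 30 of these cells per library, the shares were 89.9% in pretreatment, 92.0% in continuous, 92.4% in chronic, 73.4% in acute, 75.2% in irradiated and 75.0% in normal, against 2.04 to 13.5% in T cell-like cells. Most resident-gated cells therefore carried Ccl8 in every library at equal depth. Cells gated on the complement genes C1qa, C1qb and C1qc came next, with Ccl8 at 6728 CPM in continuous, 2662 in chronic, 1619.9 in acute, 1646 in irradiated and 1842 in normal. Their range did not overlap that of class II-gated cells, the next group, whose median was 534 CPM. Pretreatment had 12 cells in the C1q gate, too few for a value.

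How many resident-gated cells a library held differed as well. They were 47.7% of macrophage or monocyte-like cells in pretreatment, 8.63% in continuous, 2.94% in chronic, 2.65% in acute, 3.02% in irradiated and 4.51% in normal. They held 93.7% of the Ccl8 UMIs of that class in pretreatment, 48.9% in continuous, 26.5% in chronic, 16.9% in acute, 20.5% in irradiated and 30.1% in normal. In clusters built without chemokine genes, 50.3% of the pretreatment macrophage or monocyte-like cells fell in a single cluster that took 6.74 to 15.5% of them in the other libraries. Over all libraries the most frequent gate among the macrophage or monocyte-like cells of that cluster was C1q, so the cluster does not stand for the resident gate. Class-wide Ccl8 levels thus mix the level within resident-gated cells with their share, and both were high in pretreatment.

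**Figure D3:**
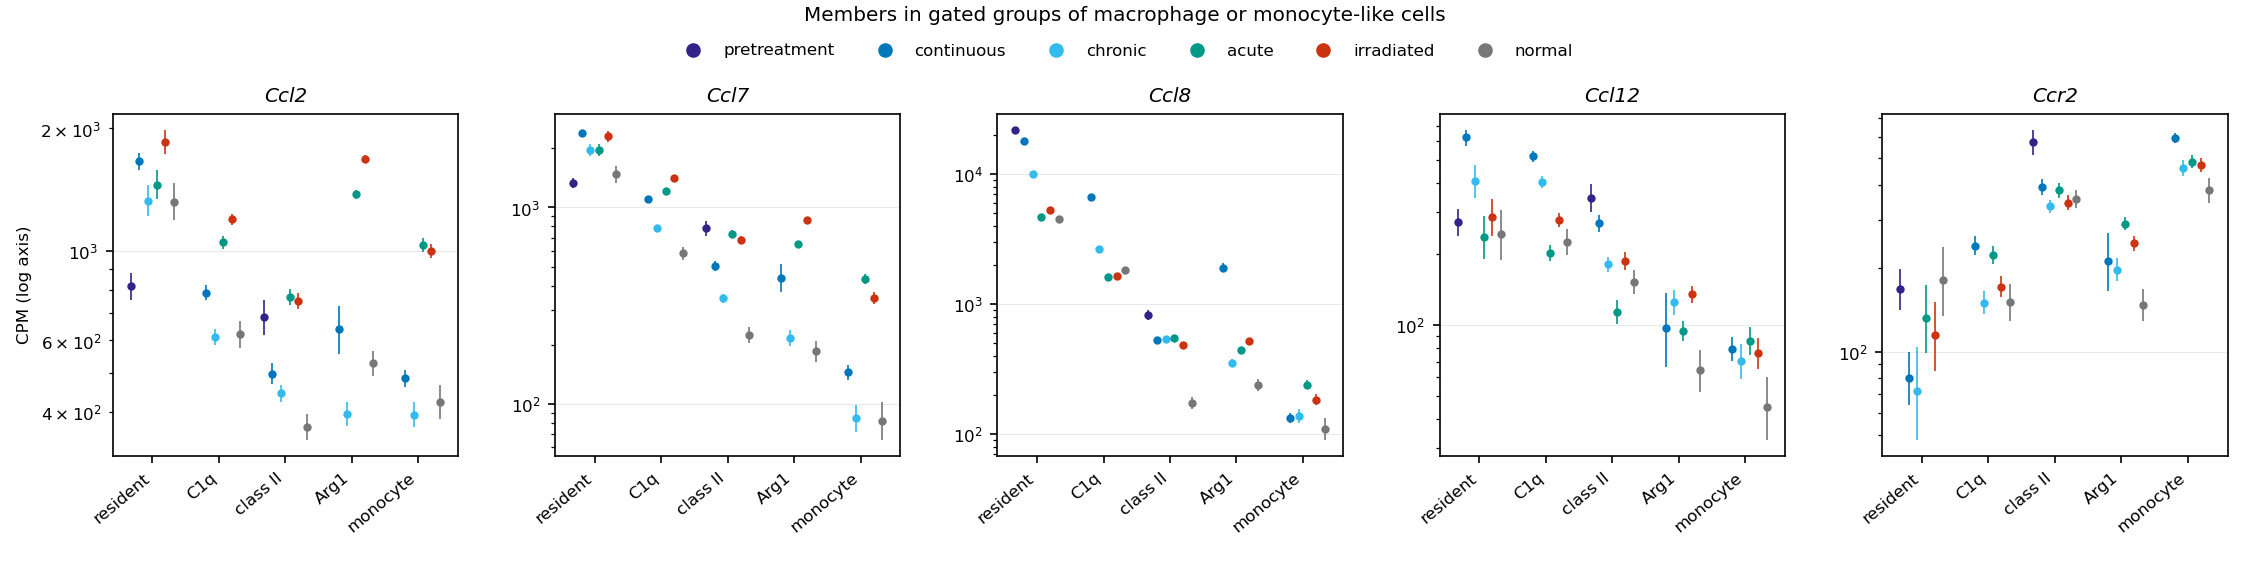
Levels of the 5 genes (CPM, log axis, exact 95% intervals) in the resident-, C1q-, class II-, Arg1- and monocyte-gated groups of macrophage or monocyte-like cells, one point per group and library with at least 50 cells. Ccl8 steps down from resident-gated (4530.5 to 21728 CPM) to C1q-gated cells (1619.9 to 6728 CPM), while Ccr2 is highest in monocyte-gated cells at 384 to 594 CPM.

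Ccl7 and Ccl2 were also high in resident-gated cells, without the library pattern of Ccl8. Resident-gated Ccl7 stood at 1331 CPM in pretreatment, 2396 in continuous, 1955 in chronic, 1956 in acute, 2308 in irradiated and 1473 in normal. Resident-gated Ccl2 stood at 816 CPM in pretreatment, 1661 in continuous, 1327 in chronic, 1454 in acute, 1854 in irradiated and 1321 in normal. For both genes pretreatment was the lowest library, whereas for Ccl8 it was the highest. Cells gated on Arg1, the arginase gene of wound-type macrophages, showed the widest spread of Ccl2, at 639 CPM in continuous, 396 in chronic, 1377 in acute, 1684 in irradiated and 527 in normal. The Arg1 gate held no cell in pretreatment.

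Ccl12 was carried mainly by macrophage or monocyte-like cells, at 304 CPM in pretreatment, 297 in continuous, 216 in chronic, 125 in acute, 175 in irradiated and 128 in normal. The range over libraries did not overlap that of any class below it in the order of medians. Erythroid-like cells came next at a median of 59.7 CPM, and these also carried Lyz2 at 25.8 to 50.8% of its macrophage or monocyte-like level. Fibroblast-like cells held 0 Ccl12 UMIs in pretreatment (an upper bound of 0.553 CPM), 20 in continuous, 21 in chronic, 63 in acute, 99 in irradiated and 42 in normal, or at most 10.2 CPM. That was 0 to 6.12% of the macrophage or monocyte-like level, beside 0.166 to 6.72% for the complement gene C1qb. Within macrophage or monocyte-like cells the medians were 281 CPM in resident-gated, 280 CPM in C1q-gated, 184 CPM in class II-gated, 96.9 CPM in Arg1-gated and 75.8 CPM in monocyte-gated cells. Ccl12 was seen in 9.01 to 19.2% of macrophage or monocyte-like cells after thinning, against 0 to 2.39% of T cell-like cells.

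Ccr2, the receptor, was highest in T cell-like, natural killer or innate lymphoid-like and macrophage or monocyte-like cells. In T cell-like cells it stood at 345 CPM in pretreatment, 454 in continuous, 457 in chronic, 512 in acute, 509 in irradiated and 538 in normal. Macrophage or monocyte-like cells held it at 351 CPM in pretreatment, 387 in continuous, 273 in chronic, 323 in acute, 287 in irradiated and 258 in normal. T cell-like cells were above macrophage or monocyte-like cells in 5 libraries, and in pretreatment the intervals of the classes overlapped. Natural killer or innate lymphoid-like cells held 246 to 549.6 CPM over 5 libraries and dendritic-like cells 157 to 250.3 CPM over 6. The ranges of T cell-like, natural killer or innate lymphoid-like and macrophage or monocyte-like cells overlapped one another, and the last lay wholly above dendritic-like cells. Fibroblast-like cells held 1.20 to 23.8 CPM, keratinocyte-like cells 1.58 to 41.9 CPM and neutrophil-like cells 4.17 to 64.6 CPM.

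Among macrophage or monocyte-like cells, those gated on monocyte genes that included Ly6c2, Chil3, Plac8, Vcan and F10 carried the most Ccr2, at 594 CPM in continuous, 463 in chronic, 486 in acute, 473 in irradiated and 384 in normal. Pretreatment had 14 such cells, too few for a value. Class II-gated cells followed at 572 CPM in pretreatment, 396 in continuous, 335 in chronic, 383 in acute, 346 in irradiated and 358 in normal, and their range overlapped that of monocyte-gated cells. Resident-gated cells were at the low end, at 168 CPM in pretreatment, 80.4 in continuous, 71.8 in chronic, 132 in acute, 115 in irradiated and 181 in normal. Ccr2 thus ran opposite to Ccl8 along the groups: monocyte-gated and class II-gated cells held more Ccr2, and resident-gated and C1q-gated cells more Ccl8.

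In thinned cells Ccr2 was seen in 29.3 to 44.0% of monocyte-gated and 24.5 to 38.7% of T cell-like cells, against 0 to 1.84% of fibroblast-like and 0 to 4.95% of keratinocyte-like cells. At full depth the shares were 53.5 to 85.4% of monocyte-gated and 38.0 to 55.1% of T cell-like cells, against 1.38 to 8.19% of fibroblast-like and 2.33 to 11.06% of keratinocyte-like cells. Shares in monocyte-gated and T cell-like cells thus lay above those of fibroblast-like and keratinocyte-like cells at either depth. How much free Ccr2 RNA the monocyte-gated and T cell-like cells held was not tested.

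The opposite placing of Ccl8 and Ccr2 was also seen cell by cell over the whole class. After thinning, Ccr2 was seen in 19.2% of Ccl8-positive against 36.8% of Ccl8-negative macrophage or monocyte-like cells in pretreatment, 11.4% against 36.4% in continuous and 14.0% against 24.4% in chronic. The shares were 18.2% against 27.4% in acute, 15.6% against 25.5% in irradiated and 13.1% against 23.0% in normal. Ccr2 was the less frequent among Ccl8-positive cells in every library, with intervals apart in 5 of 6, the exception being pretreatment. Inside the C1q gate the intervals lay apart in the same direction in 4 of 5 libraries. They overlapped in each library with a value in the other gates, with 0 of 5 apart in class II-gated, 0 of 5 in monocyte-gated, 0 of 4 in Arg1-gated and 0 of 3 in resident-gated cells. Between Ccl2 and Ccr2 no such split was seen, with overlapping intervals in 6 of 6 libraries for macrophage or monocyte-like cells.

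Which cells supplied the transcripts differed by library. Fibroblast-like cells held 64.1% of all Ccl2 UMIs in pretreatment, 43.9% in continuous, 29.0% in chronic, 24.7% in acute, 34.1% in irradiated and 49.5% in normal, and macrophage or monocyte-like cells held 15.8% in pretreatment, 37.6% in continuous, 42.3% in chronic, 39.7% in acute, 35.4% in irradiated and 15.8% in normal. The stromal share was thus the larger in pretreatment, continuous and normal, and the myeloid share in chronic and acute, with the shares close together in irradiated. For comparison, fibroblast-like cells held 37.6% of all gene UMIs in pretreatment, 13.5% in continuous, 8.7% in chronic, 19.6% in acute, 20.9% in irradiated and 27.3% in normal. Macrophage or monocyte-like cells held 9.81 to 35.0% of all gene UMIs over the libraries, so a larger myeloid share of Ccl2 also reflects more myeloid RNA. The fibroblast-like share of Ccl2 exceeded their share of all UMIs in every library. For Ccl7 the fibroblast-like share ran between 24.0% in chronic and 61.7% in pretreatment.

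Ccl8 came mainly from macrophage or monocyte-like cells, with 75.6% of its UMIs in pretreatment, 89.1% in continuous, 76.7% in chronic, 61.8% in acute, 57.7% in irradiated and 43.7% in normal, and Ccl12 more so, with 70.0 to 92.4%. Ccr2 UMIs were divided: macrophage or monocyte-like cells held 26.2% in pretreatment, 58.7% in continuous, 50.8% in chronic, 51.3% in acute, 47.8% in irradiated and 38.0% in normal, and T cell-like cells 11.2 to 32.6%. In pretreatment 49.3% of Ccr2 UMIs came from dendritic-like cells, which held 25.9% of all UMIs there and 1.2 to 2.9% in the other libraries. The make-up of the captured cells thus enters every whole-library level of these genes. Whole-library Ccl8, for instance, was 1462 CPM in pretreatment, 1207 in continuous, 598 in chronic, 420.1 in acute, 408 in irradiated and 274 in normal. In dendritic-like cells Lyz2 stood at 60.1% of its macrophage or monocyte-like level in pretreatment and 20.5 to 39.2% elsewhere. C1qb stood there at 6.63% in pretreatment and 8.86 to 24.8% elsewhere. Cd209d, a gene of the resident gate, was among the 10 genes highest by fold in dendritic-like cells. The part of macrophages in that class was not tested.

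**Figure D4:**
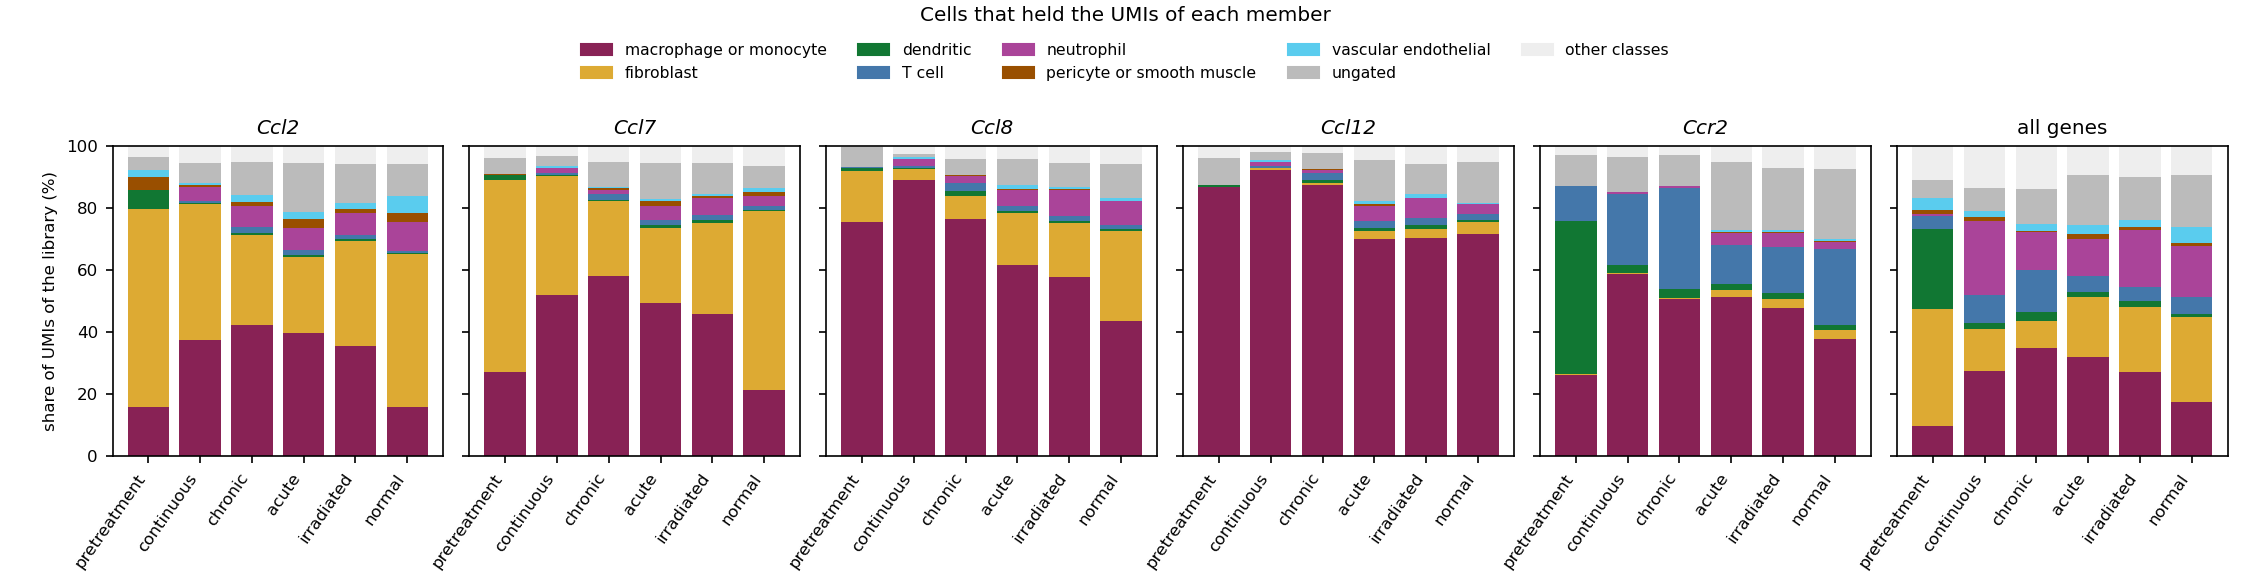
Share of each gene's UMIs (percent, stacked) held by each cell class in each library, beside the share of all gene UMIs. Macrophage or monocyte-like cells hold 43.7 to 89.1% of Ccl8 UMIs, and dendritic-like cells hold 49.3% of Ccr2 UMIs in pretreatment.

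The patterns of the 5 genes over 62 sums of a class in a library were compared by Pearson's r of log2(CPM + 10), as a description, since the points share libraries and classes. Among themselves r was 0.85 for Ccl2 and Ccl7, 0.77 for Ccl8 and Ccl12, 0.72 for Ccl7 and Ccl8 and 0.50 for Ccl2 and Ccl8. For Ccr2 it was 0.33 with Ccl8, 0.54 with Ccl12, 0.17 with Ccl7 and -0.19 with Ccl2. The opposite placing of Ccl8 and Ccr2 was thus seen within macrophage or monocyte-like cells and not over these sums. Of 7750 genes compared, the 3 most like Ccl2 were Cxcl1 (r = 0.90), a neutrophil-attracting chemokine, Fndc3b (0.86) and Ctsl (0.85), a lysosomal protease. Those most like Ccl7 included Pdpn, a stromal and macrophage surface glycoprotein, and Ccl2, each at 0.85. Ccl8 was closest to Folr2 (0.83), a resident-macrophage folate receptor that served in the gate, Hacd4 and Nxpe5 (0.78 each). Ccl12 was closest to the complement genes C1qc (0.89) and C1qb (0.88) and to Ms4a7 (0.89), all 3 of them gate markers. The genes closest to Ccr2 included Lpxn (0.95) and Crlf3 (0.94).

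Irradiated skin was compared with normal skin to see how the genes stood in the control of the patches. Macrophage or monocyte-like Ccl2 was 2.44-fold (2.35 to 2.54) and Ccl7 2.83-fold (2.70 to 2.98) higher in the irradiated library, whereas Ccl8 was 1.26-fold, Ccl12 1.37-fold and Ccr2 1.11-fold higher. Thus 2 of the 5 genes lay past 2-fold upward and 0 downward, where past 2-fold means at least that far apart with at least 20 UMIs over both sums. Of all genes so measured in these cells, 3.31% lay past 2-fold upward and 1.96% downward, and the median log2 ratio was 0.45 over the 5 genes and -0.08 over all genes. The groups within the class went the same way: Ccl7 was 4.68-fold (4.14 to 5.30) higher in irradiated in Arg1-gated cells, 4.19-fold (3.32 to 5.35) in monocyte-gated cells and 2.40-fold (2.21 to 2.62) in C1q-gated cells. In resident-gated cells Ccl7 was 1.57-fold (1.39 to 1.76) and Ccl2 1.40-fold (1.24 to 1.59) higher, and 0 of the 5 genes lay past 2-fold either way, beside 4.63% of all genes upward and 4.26% downward.

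In fibroblast-like cells the irradiated library held 1.52-fold (1.48 to 1.56) more Ccl2 and 1.37-fold (1.32 to 1.42) more Ccl7 than the normal library, both under 2-fold. Ccl12, from 99 UMIs in irradiated and 42 in normal, was 2.29-fold higher and the 1 gene of 5 past 2-fold upward, with 0 downward, where 2.41% of all genes lay past it upward and 2.56% downward. Beside these, the T cell-like values also differed: there Ccl2 was 3.20-fold (2.67 to 3.85), Ccl7 3.67-fold (2.92 to 4.64) and Ccl12 3.06-fold higher in irradiated. There 3 of the 5 genes lay past 2-fold upward and 0 downward, beside 2.97% and 2.04% of all genes. The part of free RNA in the macrophage or monocyte-like ratios was not tested.

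Pretreatment, set against irradiated, gave the widest spread among the 5 genes. Over macrophage or monocyte-like cells Ccl8 was 12.995-fold (12.7 to 13.3) higher in pretreatment and Ccl2 1.77-fold (1.67 to 1.87) lower, while Ccl7 (1.08-fold), Ccl12 (1.74-fold) and Ccr2 (1.23-fold) were higher by less than 2-fold, Ccl7 turning lower (a log2 ratio of -0.13) with the stricter gate. One gene of 5 lay past 2-fold upward and 0 downward, and the background in this comparison was wide, at 14.0% of all genes upward and 13.3% downward. A count of 1 in 5 is near that background, and the Ccl8 ratio lay above those of 99.8% of the genes measured. Within resident-gated cells Ccl8 was 4.13-fold (3.95 to 4.32) higher in pretreatment and Ccl2 2.27-fold (2.05 to 2.52) lower, 1 gene of 5 in each direction, beside 13.5% and 10.2% of all genes. The Ccl8 ratio was smaller there than over the whole class, in which resident-gated cells made up 47.7% of the cells in pretreatment and 3.02% in irradiated.

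In fibroblast-like cells Ccl2 was 2.09-fold (2.02 to 2.16) lower in pretreatment than in irradiated, Ccl7 1.32-fold lower and Ccl8 1.84-fold higher. Ccr2 was 18.4-fold lower and Ccl12 was at 0 UMIs in pretreatment against 99 in irradiated, so that 0 genes lay past 2-fold upward and 3 downward, beside 10.4% and 14.4% of all genes. Within the Pi16 or Dpp4 gate and the gate on Wif1, Pappa2, Coch or Slc26a7, the Ccl2 levels given above lay under 2-fold apart. Cells gated on Cxcl5 were 8 of 507 fibroblast-like cells in pretreatment and 959 of 1599 in irradiated. The class-wide Ccl2 ratio thus mixes level with the make-up of the fibroblast-like class. Over the 6 libraries Ccr2 stood in this class at 0.342 to 7.70% and Ccl12 at 0 to 6.12% of the macrophage or monocyte-like level, beside 0.177 to 7.07% for Lyz2. The part of free RNA in these values was not tested. In T cell-like cells Ccl2 was 24.3-fold (12.2 to 56.5) lower in pretreatment, and 4 of the 5 genes lay past 2-fold downward and 0 upward, beside 19.3% and 7.70% of all genes.

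The continuous library, like pretreatment, held high Ccl8 in macrophages. Over macrophage or monocyte-like cells Ccl8 was 4.52-fold (4.43 to 4.62) higher in continuous than in irradiated, Ccl12 1.70-fold and Ccr2 1.35-fold (1.29 to 1.41) higher, while Ccl2 was 1.76-fold (1.71 to 1.82) and Ccl7 1.23-fold lower. One gene of 5 lay past 2-fold upward and 0 downward, beside 5.39% and 8.56% of all genes, and the Ccl8 ratio lay above those of 99.7% of them. The Ccl8 difference was seen in each of 3 groups of the class: 3.41-fold (3.27 to 3.57) in resident-gated, 4.09-fold (3.96 to 4.22) in C1q-gated and 3.67-fold (3.35 to 4.01) in Arg1-gated cells. It was not seen in class II-gated cells (1.09-fold higher) or in monocyte-gated cells (1.39-fold lower). These differences between groups were not tested. In resident-gated cells Ccl12 was also past 2-fold (2.17-fold, 1.79 to 2.65), making 2 of 5 upward and 0 downward, beside 10.9% and 8.42% of all genes.

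In fibroblast-like cells Ccl7 was 1.44-fold (1.39 to 1.49) and Ccl2 1.07-fold (1.04 to 1.10) higher in continuous than in irradiated, both under 2-fold. Ccl12 was 2.43-fold lower and Ccr2 4.22-fold lower, from the low levels given above, making 0 genes past 2-fold upward and 2 downward, beside 4.75% and 9.04% of all genes. In the vessel wall Ccl2 was 7.04-fold (5.68 to 8.80) lower in pericyte or smooth muscle-like cells and 3.68-fold (3.07 to 4.44) lower in vascular endothelial-like cells of continuous. With doublets kept the pericyte or smooth muscle-like log2 ratio was -1.39 against -2.82, and with classes taken from clusters the vascular endothelial-like one was -0.89 against -1.88, which is less than 2-fold. T cell-like Ccl2 was 8.57-fold (6.89 to 10.8) lower, and 3 of the 5 genes lay past 2-fold downward and 0 upward there, beside 11.7% and 5.34% of all genes.

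The chronic library held less Ccl2 and Ccl7 in macrophages. Over macrophage or monocyte-like cells Ccl2 was 2.47-fold (2.40 to 2.55) and Ccl7 2.03-fold (1.96 to 2.09) lower in chronic than in irradiated, Ccl8 1.51-fold (1.47 to 1.55) and Ccl12 1.23-fold higher and Ccr2 1.05-fold lower. Thus 0 genes lay past 2-fold upward and 2 downward, beside 2.38% and 4.98% of all genes, and the Ccl7 ratio was just short of 2-fold under 3 of the alternatives. Arg1-gated cells held 4.26-fold (3.96 to 4.58) less Ccl2 and 3.98-fold (3.61 to 4.40) less Ccl7, and monocyte-gated cells 2.53-fold (2.33 to 2.75) less Ccl2 and 4.07-fold (3.44 to 4.86) less Ccl7. In resident-gated cells Ccl2 was 1.40-fold and Ccl7 1.18-fold lower, and Ccl8 1.92-fold (1.82 to 2.02) higher, so that 0 genes lay past 2-fold either way, beside 5.67% upward and 4.56% downward of all genes. In T cell-like cells Ccl2 was 4.10-fold (3.54 to 4.75) lower, with 3 of 5 genes past 2-fold downward and 0 upward, beside 6.97% and 2.85% of all genes. T cell-like Ccl2 thus differed in the same direction, and the part of free RNA was not tested.

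In fibroblast-like cells of chronic skin the ligands lay closer to irradiated. Ccl2 was 1.12-fold and Ccl7 1.03-fold (0.983 to 1.08) lower, the interval of Ccl7 including no difference, and Ccl8 was 1.48-fold (1.39 to 1.58) higher. Ccr2, low in this class, was the 1 gene of 5 past 2-fold, 2.71-fold lower, beside 6.01% of all genes downward and 3.75% upward.

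In the acute library all 5 genes lay within 2-fold of irradiated skin in the classes compared here. Over macrophage or monocyte-like cells Ccl2 was 1.10-fold, Ccl7 1.14-fold, Ccl8 1.06-fold and Ccl12 1.40-fold (1.31 to 1.49) lower in acute, and Ccr2 was 1.13-fold (1.08 to 1.18) higher. In fibroblast-like cells Ccl2 was 1.36-fold (1.33 to 1.40) and Ccl7 1.21-fold lower, while Ccl8 (1.03-fold higher) had an interval of 0.978 to 1.08 that includes no difference. In both classes, and in resident-gated and T cell-like cells, 0 of the 5 genes lay past 2-fold in either direction. The background was also narrow, at 1.21% upward and 0.960% downward in macrophage or monocyte-like cells, 1.40% and 0.920% in fibroblast-like cells, 2.48% and 3.21% in resident-gated cells and 1.75% and 1.54% in T cell-like cells.

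**Figure D5:**
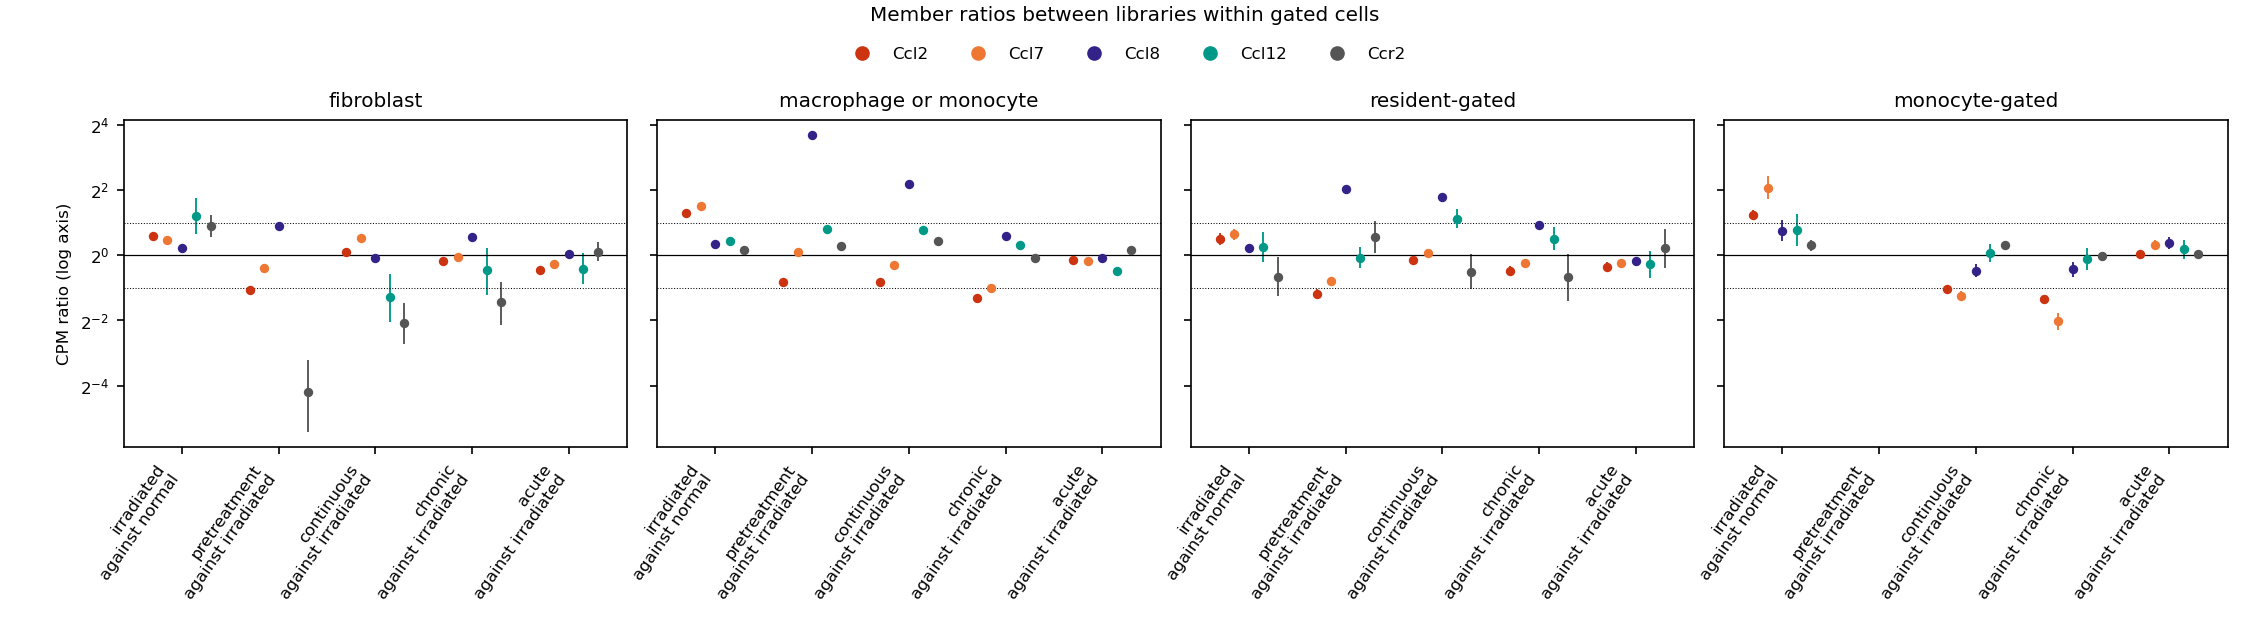
CPM ratios of the 5 genes in the 5 comparisons (log axis, exact 95% intervals, dotted lines at 2-fold) in fibroblast-like, macrophage or monocyte-like, resident-gated and monocyte-gated cells. Ccl8 is 12.995-fold higher in pretreatment and 4.52-fold higher in continuous than in irradiated over macrophage or monocyte-like cells, and the acute ratios lie within 2-fold; pretreatment Ccl12 in fibroblast-like cells (0 UMIs) is not drawn.

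Among the other receptors and scavengers of these ligands, Ccr1 and Ackr1 were highest in other classes than Ccr2. Ccr1, a receptor of Ccl7 among others, was highest in neutrophil-like cells at 1065 to 1206 CPM, against 316 to 626 CPM in macrophage or monocyte-like cells. Ackr1, a scavenger that binds chemokines on venous endothelium, stood at 71.4 to 234 CPM in vascular endothelial-like cells and at most 0.495 CPM in macrophage or monocyte-like cells. Myeloid cells thus carried more than 1 receptor for these ligands. Ackr1 was itself a marker of the vascular endothelial gate, so its level there is not independent of the gate. Fibroblast-like cells of pretreatment held Ackr1 at 96.4 CPM, within the vascular endothelial-like range.

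The lists of related genes were read in macrophage or monocyte-like cells by how many members lay past 2-fold. Of 15 measured genes of Ccr2 signalling, such as G protein subunits, Rac2 and Dock2, 0 lay past 2-fold in the irradiated, continuous, chronic and acute comparisons, where 3.31%, 5.39%, 2.38% and 1.21% of all genes lay past it upward and 1.96%, 8.56%, 4.98% and 0.960% downward. In pretreatment Rgs1, which shuts off G protein signals, was the 1 gene past it, at 26.4 CPM in pretreatment against 315 CPM in irradiated, beside 14.0% of all genes upward and 13.3% downward. Of the 18 signals that induce the ligands, 5 were past 2-fold upward and 0 downward in irradiated against normal, beside 3.31% and 1.96% of all genes. Among them were Ifnb1, the interferon beta gene, at 14.8 CPM in irradiated against 3.13 CPM in normal, and Irf7, an interferon-response factor, at 241 CPM in irradiated against 63.8 CPM in normal. The median log2 ratio of that list was 0.64, beside -0.08 over all genes.

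The inducing signals lay the other way in 3 of the patch libraries, which share the irradiated library. Against irradiated, 1 lay past 2-fold upward and 10 downward in pretreatment, 1 upward and 6 downward in continuous, 0 upward and 5 downward in chronic and 0 upward and 1 downward in acute. Of all genes, 14.0% lay past it upward and 13.3% downward in pretreatment, 5.39% and 8.56% in continuous, 2.38% and 4.98% in chronic and 1.21% and 0.960% in acute. Il6, an inflammatory cytokine, stood at 19.5 CPM in pretreatment and 39.2 CPM in continuous, against 282 CPM in irradiated. Tnf, another, stood at 638 CPM in continuous and 533 CPM in chronic, against 2386 CPM in irradiated. Tnfrsf1a, its receptor, was the gene past 2-fold upward, at 119.6 CPM in pretreatment and 139 CPM in continuous, against 58.0 CPM in irradiated. The list median was -1.19 in pretreatment, -0.48 in continuous, -0.60 in chronic and -0.19 in acute, beside 0.19, -0.01, 0.02 and 0.05 over all genes in the same 4 comparisons.

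Of 14 measured genes for other monocyte recruitment and survival, 3 were past 2-fold upward and 0 downward in irradiated against normal, beside 3.31% and 1.96% of all genes. Ccl4, a chemokine that attracts leukocytes, stood at 5809 CPM in irradiated against 1778 CPM in normal, and Vcam1, an adhesion molecule for monocytes, at 346 CPM in irradiated against 164 CPM in normal. Against irradiated, 0 were upward and 9 downward in pretreatment, 0 and 4 in continuous, 0 and 4 in chronic, and 0 and 0 in acute, where 13.3% of all genes lay past it downward in pretreatment, 8.56% in continuous, 4.98% in chronic and 0.960% in acute. Ccl4 stood at 379 CPM in pretreatment, 1651 CPM in continuous and 1068 CPM in chronic, against 5809 CPM in irradiated. Ccl4 thus lay on the same side of irradiated as Ccl2 in these 3 libraries, and Ccl8 on the opposite side.

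In fibroblast-like cells the scavenger gene Ackr1 was higher in 3 patch libraries, at 96.4 CPM in pretreatment, 44.2 CPM in continuous and 20.5 CPM in chronic, against 9.24 CPM in irradiated. That is 10.4-fold (8.36 to 13.2), 4.78-fold (3.72 to 6.19) and 2.22-fold (1.57 to 3.12). Icam1, an adhesion molecule for leukocytes, stood at 410.3 CPM in pretreatment against 176 CPM in irradiated. Il34, a growth factor of macrophages, stood at 10.8 CPM in pretreatment against 4.31 CPM in irradiated. The make-up of the fibroblast-like class differed between these libraries, with 8 of 507 cells in the Cxcl5 gate in pretreatment and 959 of 1599 in irradiated. The part of that make-up in these class-wide ratios was not tested. The genes of these lists past 2-fold downward in fibroblast-like cells included leukocyte genes such as Rgs1, at 1.65 CPM in pretreatment against 50.2 CPM in irradiated. Lyz2 was carried in this class at 0.177% of its macrophage or monocyte-like level in pretreatment and 5.26% in irradiated. The part of free RNA in the values of these leukocyte genes was not tested.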

How the data were processed

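The deposited matrices hold raw counts (UMIs of each gene in each barcode); their headers name Cell Ranger 6.0.0 as the writer. Seurat 5.0.1 and the pig build Sscrofa11.1 are named in the submitters' processing notes, but all features were mouse identifiers; the mouse build is not given in the sources used here. A barcode was kept as a cell from 500 UMIs and 300 genes upward, if no more than 20% of its UMIs were mitochondrial. Scrublet's own threshold was erratic between libraries (0 to 22.0% marked), so the highest-scoring 1.47 to 10.0% were removed at 0.8% per 1000 barcodes, at most 10%. Each cell took the class with the highest mean marker z score (capped at 5) where at least 2 markers were present, the score was at least 0.1 and it led by at least 0.1; these thresholds were set after seeing the data, and 13740 ungated cells lay within 0.1 of them. Sums, ratios and intervals (exact Poisson, conditional and Clopper-Pearson, 95%) were computed with Python 3.11.15, numpy 2.4.6, scipy 1.17.1, pandas 2.3.3, scanpy 1.11.5, anndata 0.12.19 and igraph 0.11.9, drawn with matplotlib 3.10.9, and tested on simulated data. Classes under 50 cells were left out. Antibody counts (4 tags in chronic, acute, irradiated and normal) stayed out of gene totals, since no source links a tag to an animal. Named genes were the 5 genes, the 3 most alike to each, the gate markers and, per list and direction, at most the 2 furthest past 2-fold with at least 100 UMIs; a few genes under this rule are not reported here. The genes and lists were chosen with earlier results of these data known. PCR duplicates were collapsed only as far as UMIs allow.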

Additional observations from a re-analysis of the deposited data

Results flagged for a closer look

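Ccl8 lay on opposite sides in different classes of the same comparison, past 2-fold each way, in 4 of the 5 comparisons. No difference between classes was tested, and most of these sums were small. In the upward classes below, 4.77% of all genes were past 2-fold upward in irradiated, 14.0% in pretreatment, 5.39% in continuous and 5.01% in chronic. In the downward classes the shares past 2-fold downward were 5.43%, 17.4%, 12.1% and 8.92%, in the same order. Vascular endothelial-like Lyz2 stood at 0.275% of its macrophage or monocyte-like level in pretreatment, 6.76% in chronic and 10.5% in irradiated. The part of free RNA was not tested.

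In irradiated against normal, the log2 ratio of Ccl8 was 1.66 in B cell-like cells (38 UMIs in irradiated, 9 in normal) and -1.85 in natural killer or innate lymphoid-like cells (29 in irradiated, 101 in normal, with 54 of these 101 in 1 cell). In pretreatment against irradiated it was 3.70 in macrophage or monocyte-like cells and -2.56 in vascular endothelial-like cells (14 UMIs in pretreatment, 147 in irradiated). In continuous against irradiated it was 2.18 in macrophage or monocyte-like cells and -1.03 in pericyte or smooth muscle-like cells (27 UMIs in continuous, 47 in irradiated). In chronic against irradiated it was 1.12 in dendritic-like cells (273 UMIs in chronic, 153 of them in 1 cell, and 117 in irradiated) and -1.01 in vascular endothelial-like cells (41 UMIs in chronic, 147 in irradiated).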

How the results depend on the processing

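No paired analysis was possible because each label had 1 library and no test was run. Leaving out a library was not possible for the same reason. Over 70 ratios and 414 alternative values (doublets kept, a stricter cell filter, classes from clusters, a stricter gate, thinning to 1000 UMIs, and totals without mitochondrial, ribosomal and haemoglobin UMIs), 397 kept their sign, and of 93 alternatives of the 16 ratios past 2-fold all 93 kept it and 85 stayed past 2-fold. The largest move was 1.43 on the log2 scale, of Ccl2 in pericyte or smooth muscle-like cells of continuous with doublets kept.

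For fibroblast-like Ccl2 the log2 ratio in irradiated against normal was 0.56 with the stricter gate and 0.76 thinned, against 0.60. In pretreatment it was -1.11 from clusters, -1.01 with the stricter gate and -1.60 thinned, in continuous 0.22 with doublets kept, 0.016 from clusters, 0.18 with the stricter gate and 0.0097 thinned, in chronic -0.081 with doublets kept and -0.33 thinned, and in acute -0.39 with doublets kept, -0.39 from clusters and -0.41 thinned. For macrophage or monocyte-like Ccr2 it was 0.45 in pretreatment with the stricter gate, 0.57 in continuous from clusters and 0.50 without mitochondrial, ribosomal and haemoglobin UMIs, and -0.21 in chronic thinned.

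Calls that depended on a setting were chronic Ccl7 in macrophage or monocyte-like cells (-1.02; -0.97 with doublets kept, -0.93 from clusters and -0.96 without those UMIs), monocyte-gated Ccl2 in irradiated (1.23; 0.80 with the stricter gate) and vascular endothelial-like Ccl2 (from clusters -0.29 in pretreatment and -0.89 in continuous; thinned -1.20 in chronic). Past 2-fold only under an alternative were, in pretreatment, macrophage or monocyte-like Ccl2 (-1.12 thinned) and Ccl12 (1.14 from clusters, 1.09 thinned) and, in chronic, resident-gated Ccl8 (1.00 with doublets kept, 1.05 with the stricter gate, 1.03 thinned). Resident-gated values have no cluster alternative, as no cluster met that gate. By Spearman's rho, the 3 genes most like Ccl8 and Ccl12 were others. Ccl12 in fibroblast-like cells rests on 0 to 99 UMIs per library, which limits the precision of its ratios, and 1 library per label leaves differences between animals unmeasured. The cause of these moves was not tested.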

Other observations

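Mast cell-like cells, 9 to 42 per library and so below the number used for levels, held more Ccl7 than their share of RNA. They held 3.03% of all Ccl7 UMIs in pretreatment, 0.560% in continuous, 1.74% in chronic, 0.510% in acute, 0.483% in irradiated and 1.68% in normal, beside 0.0596 to 0.180% of all gene UMIs. Their share of Ccl2 UMIs was 0.143 to 1.12%, and of Ccr2 UMIs 0 to 0.197%.

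Single cells decided some small sums. In pretreatment 1 dendritic-like cell held 275 of 331 Ccl8 UMIs (83.1%) of that class, and in chronic 1 held 153 of 273 (56.0%). In continuous 1 vascular endothelial-like cell held 93 of 177 Ccl8 UMIs (52.5%).

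The antibody tags did not divide the cells of a library. The leading tag held 41.4 to 78.2% of the tag UMIs of a library, and 5 to 14 cells per library had another tag at 80% or more.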
